A study of Mus musculus with 12 samples.

Results

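The genes described here are 38 markers of microglia and macrophages, of which 37 were measured among the 18193 genes of the arrays. They were chosen by name, with earlier results of these data known. Each gene's level is a mean of log2 values over probe sets matched to no other gene. Less specific sets, whose names end in _s_at or _x_at, were left out unless there was nothing else. Spp1, which encodes osteopontin, had no probe set paired with its name in the annotation used and was not analysed here. The arrays hold 8 medulloblastomas (MBs), which are tumors of the cerebellum, 2 samples of cerebellar granule neuron progenitors (GNPs) and 2 samples of whole cerebellum. The MBs arose in Nestin-Cre p53-/- mice that also lost Xrcc4, a factor of non-homologous end joining, in cells of the Nestin-expressing neural lineage. Tumors MB_1206 and MB_706 carried the Xrcc4 c/c genotype and tumors MB_630, MB_794, MB_1187, MB_1197, MB_1207 and MB_1224 carried Xrcc4 c/-. The p53-/- allele is a germline one, so the macrophages of these mice also lacked p53. The GNPs (mice CGNP_2698 and CGNP_2705) and the cerebellum (mice WC_2646 and WC_2647) came from control animals that the study describes as matched in age and genotype, and their exact alleles and ages are not given in the sources used here. The labels call the MBs tumor tissue, whereas the study also speaks of medulloblastoma cells and cultured cells of 6 of these tumors, so how far the other cells of a tumor had been removed before RNA extraction is not stated. How the GNPs were separated is not stated either. With no ages given, a difference in age and a difference in sample type cannot be told apart in the comparisons below.

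Microglia are the resident macrophages of the brain. In the resting, homeostatic state they carry receptors such as P2RY12 and CX3CR1, depend on the receptor CSF1R, and make the C1q that opens the classical complement pathway. Activated microglia and macrophages that enter from the blood carry more lysosomal and phagocytic proteins, such as CD68, galectin-3 and lysozyme, and both kinds of cell are known to gather in medulloblastoma. In bulk samples of this kind, fewer cells of a type and less RNA per cell cannot be told apart.

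The labelled cell types were checked first. Mki67, a marker of dividing cells, and Atoh1, the transcription factor of granule progenitors, had lowest log2 levels of 11.98 and 11.13 in the MBs. In the GNPs Mki67 measured 8.90 and 9.14 and Atoh1 6.04 and 5.87, and in the cerebellum neither gene exceeded 2.81. The GNP samples also carried markers of other cells: Gfap of astrocytes at 9.08 and 8.96, and Col3a1 of connective tissue at 9.95 and 10.43. Cerebellum held the levels of whole tissue for Mbp of myelin (11.77 and 11.76) and Pcp2 of Purkinje cells (10.78 and 10.82). Replicates correlated across genes at 0.972 to 0.992 among MBs, and at 0.994 and 0.995 between the GNP and the cerebellum samples. Tumor MB_706 stood apart on RNA quality, with control probe sets at the 3′ end 2.93 log2 units above those at the 5′ end, where the remaining 7 tumors gave 0.559 to 0.816 and the 4 normal samples 0.154 to 0.523.

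More of the microglia and macrophage genes were higher than lower in the MBs, relative to each normal sample type. Against GNPs, 17 of the 37 measured genes were higher and 4 lower in MBs (limma, Benjamini-Hochberg adjusted p under 0.05), where 18.7% of all genes were higher and 18.6% lower. Against cerebellum, 18 were higher and 2 lower, where 22.2% of all genes were higher and 21.8% lower. Between the normal samples the genes were divided, with 8 above and 7 below cerebellum in GNPs, against 14.9% and 13.6% of all genes. The median log2 difference over the 37 genes was 1.05 for MBs against GNPs, 1.35 for MBs against cerebellum and 0.01 for GNPs against cerebellum, and over all genes each of these medians was 0.00. The comparisons share samples, so their counts are not independent of each other. Because the genes were chosen with earlier results of these data known, the counts beside the shares of all genes are a description. By this measure 6 of the genes (Il34, Trem2, Tmem119, Laptm5, Cd163 and Lyve1) never reached a log2 level of 3, close to the lowest value of the data, 2.2. Values there carry little information on the gene.

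The 4 normal samples weigh heavily in these counts. The counts of all genes also fell whenever 1 of these samples was left out. Without GNP sample CGNP_2705, 1 gene in place of 4 was lower in MBs than in GNPs, and 5 in place of 8 were higher in GNPs than in cerebellum. Without GNP sample CGNP_2698, 1 in place of 7 was lower in GNPs than in cerebellum. Without cerebellum sample WC_2646, GNPs exceeded cerebellum for 5 genes and fell short of it for 3, and without cerebellum sample WC_2647, 4 were lower there and 4 in place of 2 were lower in MBs than in cerebellum. Leaving out any 1 tumor moved none of the 6 counts by more than 1.5 times, and the counts of genes higher in MBs stayed at 13 to 18 against GNPs and at 17 to 19 against cerebellum whichever sample was left out.

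**Figure D1:**
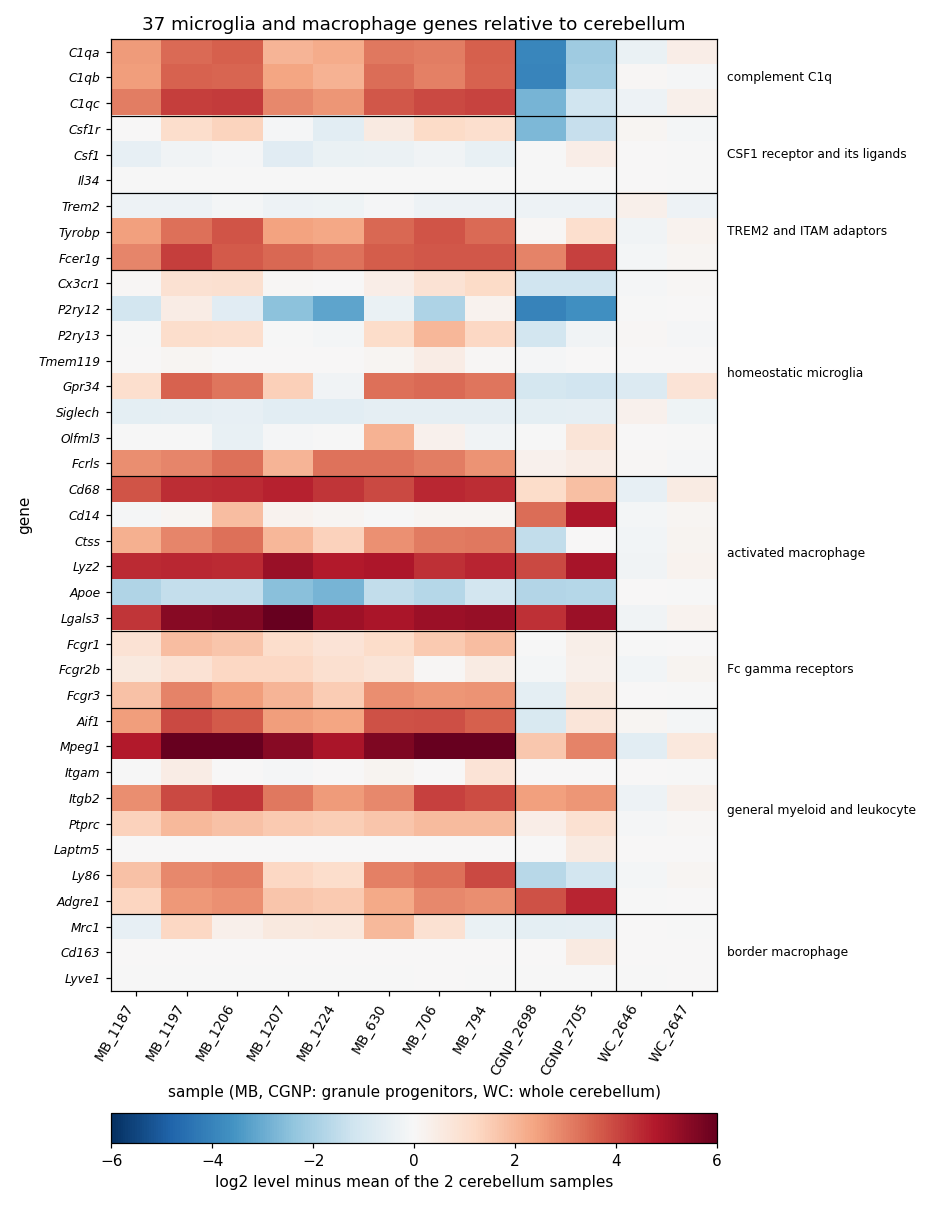
Log2 level of the 37 measured genes in each of the 12 samples minus the mean of the 2 cerebellum samples. Columns are samples, grouped as MBs, GNPs and cerebellum, and rows are genes grouped by role. Red marks a higher and blue a lower level than in cerebellum, and the colour scale ends at 6 log2 units on either side. The C1q rows are red in all 8 MBs and blue in both GNP samples, whereas Lyz2 and Lgals3 are red in both groups.

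Taking the spread of the samples alone, MBs and GNPs did not overlap for 19 genes higher and 4 lower in MBs (21.2% and 20.5% of all genes), MBs and cerebellum for 18 and 3 (24.3% and 22.6%), and GNPs and cerebellum for 11 higher and 13 lower in GNPs (31.5% and 27.8%), where 2 samples stand against 2. In 13 genes the lowest MB lay above the highest of the 4 normal samples, against 15.5% of all genes, and in 1 gene, Csf1, the highest MB lay below them, against 12.1% of all genes. These 13 were C1qa, C1qb, C1qc, Tyrobp, Fcrls, Cd68, Ctss, Fcgr1, Fcgr3, Aif1, Mpeg1, Ptprc and Ly86, and each also passed the test against both normal groups.

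The 3 chains of complement C1q were ordered MB, cerebellum, GNP. C1qa had a lowest, median and highest log2 level of 8.74, 9.84 and 10.30 in the MBs, 2.82 and 4.60 in the GNPs, and 6.32 and 7.13 in the cerebellum. No 2 groups overlapped, and the lowest tumor was more than 1 log2 unit above the highest cerebellum sample. The difference was 5.95 ± 0.54 (SE) from GNPs (adjusted p = 1.81e-05, limma) and 2.94 ± 0.54 from cerebellum (adjusted p = 0.00134). C1qb ran from 8.59 through 9.71 to 10.05 in the MBs and measured 2.56 and 4.48 in GNPs and 6.59 and 6.45 in cerebellum. C1qc, the third chain of the same hexameric protein, ran from 7.70 through 8.89 to 9.23 in the MBs, against 2.25 and 3.87 in GNPs and 4.76 and 5.35 in cerebellum. The same order of groups held for each chain. GNPs were below cerebellum for C1qa and C1qb, at -3.01 ± 0.69 and -3.0 ± 0.67 (adjusted p = 0.00846 and 0.00752), and for C1qc the difference was -1.996 ± 0.67 without passing the test (adjusted p = 0.0501). The calls between the normal groups were lost without GNP sample CGNP_2698 (adjusted p = 0.0672 for C1qa and 0.0555 for C1qb) and, for C1qa, without cerebellum sample WC_2647 (adjusted p = 0.0615). Over all alternatives they ranged from 0.00249 to 0.218 for C1qa and from 0.00218 to 0.233 for C1qb.

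**Figure D2:**
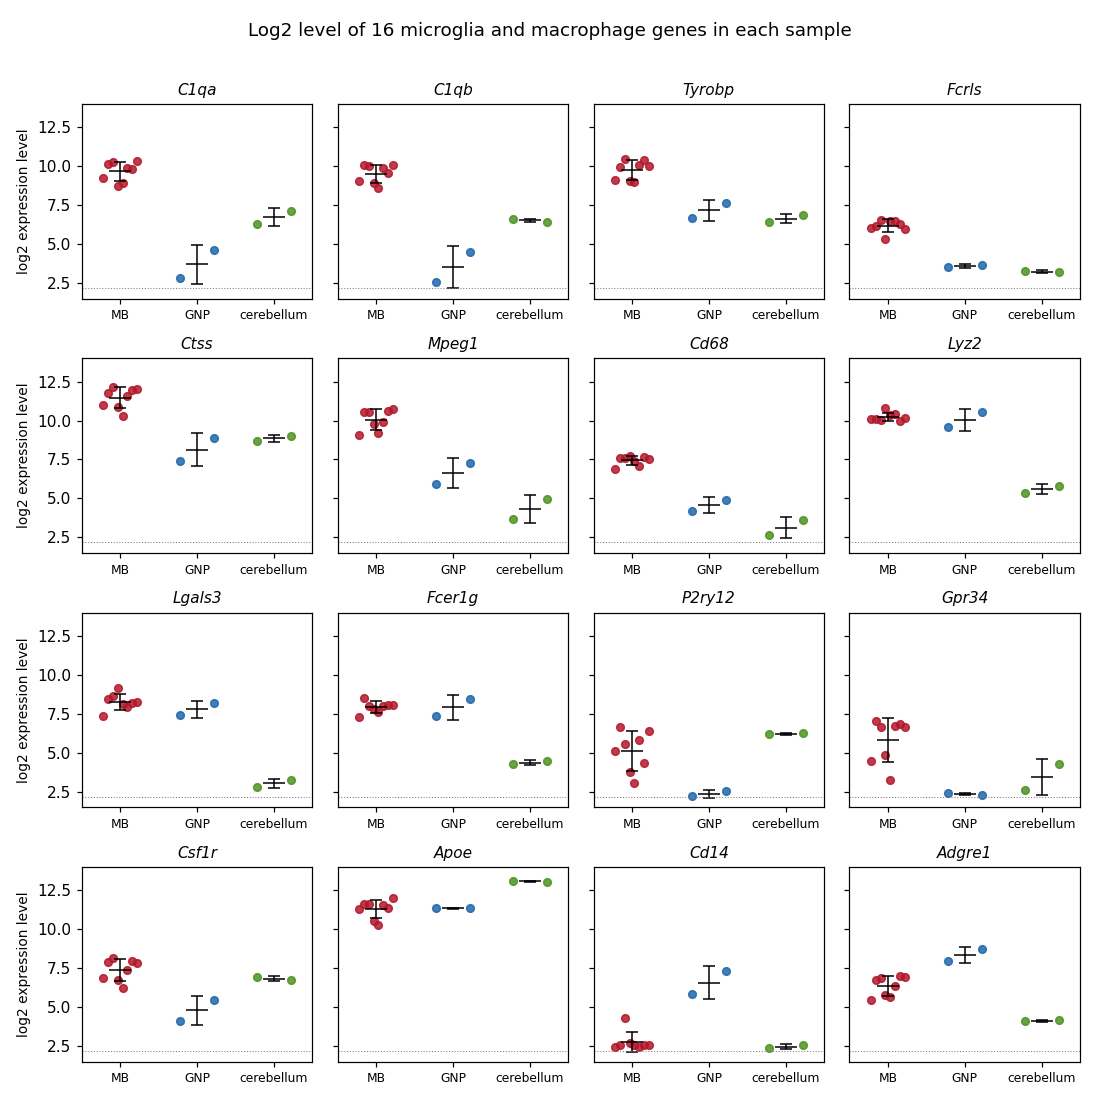
Log2 expression level of 16 genes in each sample, in MBs (n = 8), GNPs (n = 2) and cerebellum (n = 2). Points are samples, the horizontal bar is the group mean, the vertical bar is ± 1 SD, and the dotted line marks the lowest value of the data at about 2.2. C1qa and C1qb are lowest in GNPs, Lyz2, Lgals3 and Fcer1g are lowest in cerebellum, and Cd14 and Adgre1 are highest in GNPs.

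TYROBP and FCER1G are adaptor proteins that carry the signalling motif for receptors such as TREM2 and the Fc receptors, which have none of their own. Tyrobp spanned 8.96, 9.97 and 10.43 (lowest, median and highest) in the MBs and measured 6.69 and 7.65 in GNPs and 6.42 and 6.86 in cerebellum. Every tumor exceeded every normal sample, by 2.58 ± 0.46 on average against GNPs (adjusted p = 0.0015) and 3.11 ± 0.46 against cerebellum (adjusted p = 0.000329), and the normal groups overlapped. Fcer1g behaved differently, with 7.30, 8.02 and 8.52 in the MBs, 7.36 and 8.48 in GNPs, and 4.26 and 4.48 in cerebellum. The GNP values fell within the range of the tumors, with a difference of 0.01 ± 0.32 (adjusted p = 1), and both groups were clear of cerebellum (3.56 ± 0.32 for MBs, adjusted p = 1.04e-05, and 3.55 ± 0.41 for GNPs, adjusted p = 0.00013). Trem2, the lipid-sensing receptor of activated microglia, could not be read from its specific probe set, which lay between 2.20 and 2.82 in all samples. A less specific set for Trem2, not used for its level, read 4.14 to 6.56 in the MBs and at most 3.60 in the normal samples.

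CSF1R is the receptor on which microglia depend for survival, and CSF1 and IL-34 are its ligands. Csf1r ran from 6.22 through 7.61 to 8.18 in the MBs, with 4.12 and 5.47 in GNPs and 6.95 and 6.74 in cerebellum. Cerebellum lay within the range of the tumors (difference 0.55 ± 0.54, adjusted p = 0.526), and GNPs lay below both (MBs higher by 2.59 ± 0.54, adjusted p = 0.00351, and GNPs against cerebellum -2.04 ± 0.68, adjusted p = 0.0495). Without GNP sample CGNP_2698 neither call held (adjusted p = 0.0654 and 0.296). The call of GNPs against cerebellum, near the threshold, was also lost without cerebellum sample WC_2646 (adjusted p = 0.176) or WC_2647 (adjusted p = 0.128) and without tumor MB_1187, MB_1197, MB_1207, MB_630, MB_706 or MB_794 (adjusted p = 0.0539 to 0.0663). Over all alternatives adjusted p ranged from 0.000809 to 0.0742 for MBs against GNPs and from 0.0207 to 0.658 for GNPs against cerebellum. Csf1 averaged between 3.29 and 3.89 in the MBs, 3.95 and 4.34 in GNPs and 3.97 and 3.94 in cerebellum. Of its 3 probe sets 2 did not exceed 2.81 in any sample, so both this level and the differences are diluted, and the informative set read 4.98 to 6.76 in MBs, 6.95 and 7.43 in GNPs and 6.95 and 6.80 in cerebellum. The averaged difference from GNPs was -0.54 ± 0.15 (adjusted p = 0.0168), and that from cerebellum, -0.35 ± 0.15, did not pass the test (adjusted p = 0.088). The first was lost without GNP sample CGNP_2705 (adjusted p = 0.245, and from 0.00234 to 1 over all alternatives). Il34 read 2.20 to 2.26 throughout.

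The homeostatic genes did not move as a block. Of the 8, 4 were higher in MBs than in GNPs (Cx3cr1, P2ry12, Gpr34 and Fcrls) and 0 lower, against 18.7% and 18.6% of all genes. Against cerebellum Fcrls was higher, Siglech lower and the other 6 were not called. Those are shares no larger than the 22.2% and 21.8% of all genes. P2ry12, the ADP receptor that guides microglial processes, spread over 3.62 log2 units among the tumors, with 3.07, 5.35 and 6.69 as the lowest, median and highest MB. It measured 2.20 and 2.55 in GNPs and 6.18 and 6.26 in cerebellum. In 6 of the 8 MBs it was below both cerebellum samples, and in tumors MB_1197 (6.69) and MB_794 (6.42) it was above them. The mean difference from cerebellum was -1.12 ± 0.87 (adjusted p = 0.382), whereas MBs exceeded GNPs by at least 2.73 ± 0.87 (adjusted p = 0.0321), a lower bound because the GNP samples were near the lowest value of the data. That call was lost without GNP sample CGNP_2698, GNP sample CGNP_2705 or tumor MB_1206 (adjusted p = 0.174, 0.124 and 0.0518, and from 0.00939 to 0.604 over all alternatives).

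Gpr34, a lysophosphatidylserine receptor, split the tumors. It read 3.24, 4.48 and 4.87 in tumors MB_1224, MB_1187 and MB_1207 and 6.68 to 7.02 in the other 5, with 2.41 and 2.29 in GNPs and 2.63 and 4.29 in cerebellum. The difference was at least 3.47 ± 1.01 from GNPs (adjusted p = 0.0217), and 2.36 ± 1.01 from cerebellum, which did not pass the test (adjusted p = 0.0889). The call against GNPs was lost without GNP sample CGNP_2698 or CGNP_2705 (adjusted p = 0.107 and 0.122, and from 0.00434 to 0.163 over all alternatives). Fcrls, an Fc receptor-like gene used as a microglial marker in mice, was far steadier at 5.30, 6.24 and 6.56 in the MBs, against 3.52 and 3.67 in GNPs and 3.29 and 3.20 in cerebellum. All 8 tumors lay above all 4 normal samples, by 2.57 ± 0.28 from GNPs (adjusted p = 6.36e-05) and 2.92 ± 0.28 from cerebellum (adjusted p = 1.68e-05). Cx3cr1, the fractalkine receptor, had MB values of 4.33, 4.93 and 5.44 and differed from GNPs (3.12 and 3.12) by 1.74 ± 0.31 (adjusted p = 0.00154) and from cerebellum (4.27 and 4.36) by 0.55 ± 0.31 (adjusted p = 0.21). One of its 2 probe sets did not exceed 2.85 in any sample, so these differences are diluted, and the other set read 6.29 to 8.19 in MBs, 3.88 in both GNPs and 6.18 in both cerebellum samples.

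The remaining homeostatic genes were closer to the lowest values of the data. P2ry13, a second ADP receptor, ran from 3.22 to 5.33 in the MBs, at 2.21 and 3.12 in GNPs and 3.38 and 3.28 in cerebellum, with no call in any comparison (adjusted p = 0.0614 against GNPs). Siglech read 2.20 to 2.35 in MBs, 2.25 and 2.27 in GNPs and 3.09 and 2.57 in cerebellum, so that its call against cerebellum (-0.56 ± 0.10, adjusted p = 0.00115) rests on values near the lowest of the data. Tmem119 did not exceed 2.96 in any sample, cerebellum included, where microglia are resident. Olfml3 was at 2.83 in both cerebellum samples and between 2.38 and 4.92 in the MBs. For Tmem119, Siglech and Olfml3 the arrays therefore gave little or no level in normal brain to compare with. Of 8 further homeostatic genes measured, Sall1 (1.12 ± 0.37, adjusted p = 0.0331) and P2ry6 (0.97 ± 0.35, adjusted p = 0.0465) were higher in MBs than in cerebellum. None was lower, a share of rises close to the 22.2% of all genes. Against GNPs Sall1 alone was called (1.66 ± 0.37, adjusted p = 0.00518). Slc2a5, Crybb1, Entpd1 and Cd33 were near the lowest values in all samples.

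Of the 6 activated macrophage genes measured, Cd68 and Ctss were highest in MBs. Cd68, the lysosomal glycoprotein used to stain macrophages, ran from 6.91 through 7.56 to 7.74 in the MBs, a range of less than 1 log2 unit, against 4.22 and 4.92 in GNPs and 2.64 and 3.60 in cerebellum. The groups were fully separate and ordered MB, GNP, cerebellum. MBs exceeded GNPs by 2.87 ± 0.29 (adjusted p = 3.93e-05) and cerebellum by 4.31 ± 0.29 (adjusted p = 1.39e-06), and GNPs exceeded cerebellum by 1.45 ± 0.37 (adjusted p = 0.0154). The last call was lost without GNP sample CGNP_2705 or cerebellum sample WC_2646 (adjusted p = 0.116 and 0.124, and from 0.00616 to 0.955 over all alternatives). Ctss, the lysosomal protease cathepsin S, read 10.26, 11.68 and 12.18 in the MBs, 7.40 and 8.88 in GNPs and 8.69 and 9.03 in cerebellum. There the normal groups overlapped and all tumors were above them, by 3.32 ± 0.54 (adjusted p = 0.000799) and 2.60 ± 0.54 (adjusted p = 0.00278).

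Lyz2 and Lgals3 were as high in GNPs as in tumors. Lyz2, the lysozyme of macrophages and neutrophils, had 9.95, 10.15 and 10.78 in the MBs, 9.56 and 10.55 in GNPs, and 5.35 and 5.82 in cerebellum. Tumors and GNPs overlapped (difference 0.18 ± 0.27, adjusted p = 0.758), and both were more than 3 log2 units clear of cerebellum (4.66 ± 0.27 for MBs, adjusted p = 4.31e-07, and 4.47 ± 0.34 for GNPs, adjusted p = 7.45e-06). Lgals3, which encodes galectin-3, a carbohydrate-binding protein of activated macrophages and of some connective tissue cells, ran from 7.34 through 8.24 to 9.15 in the MBs, with 7.42 and 8.18 in GNPs and 2.83 and 3.26 in cerebellum. Again the tumors and GNPs overlapped (0.46 ± 0.39, adjusted p = 0.459). The increase over cerebellum, 5.22 ± 0.39 on the log2 scale in MBs (adjusted p = 2.75e-06), was the second largest among the 37 genes after Mpeg1.

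Apoe and Cd14, the remaining 2 activated genes, followed neither course. Apoe, the lipid carrier made by astrocytes as well as by microglia, was highest in cerebellum at 13.09 and 13.06, against 10.27, 11.47 and 11.995 in the MBs and 11.33 and 11.34 in GNPs. All tumors lay below cerebellum (-1.79 ± 0.40, adjusted p = 0.00431) and spanned the GNP values (-0.05 ± 0.40, adjusted p = 1). Of 6 astrocyte markers measured, 4 (Aqp4, Slc1a3, Aldh1l1 and Gja1) were also lower in MBs than in cerebellum, where 21.8% of all genes were lower. The summed level of the 6, as the log2 of the summed linear values, was 7.90 to 9.50 in MBs, 10.59 to 10.75 in GNPs and 11.43 to 11.44 in cerebellum. Gfap ran the other way, with 4.38, 6.36 and 6.95 in the MBs against 4.997 and 5.03 in cerebellum, and was not called there (1.11 ± 0.57, adjusted p = 0.155). The part of astrocytes in the Apoe result was not tested. Cd14, the co-receptor for lipopolysaccharide that rises quickly on activation, was near the lowest values of the data in 7 MBs (2.42 to 2.70) and in cerebellum (2.35 and 2.59), read 4.34 in tumor MB_1206, and reached 5.82 and 7.31 in GNPs. Both GNP samples were above all others. The difference was -3.79 ± 0.51 for MBs against GNPs (adjusted p = 0.000238) and 4.10 ± 0.65 for GNPs against cerebellum (adjusted p = 0.000996), both of them bounds on a larger difference.

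The promoters of 4 of these genes are shown because they stand for 2 orders of the groups: C1qb and C1qc, highest in MBs and lowest in GNPs, and Lyz2 and Lgals3, high in MBs and GNPs alike. Each is 300 bases, from 250 before to 50 after the gene's start, read 5′ to 3′ along the gene from RefSeq on mouse build GRCm38.p6. Capitals mark AGGAAGT or its reverse complement ACTTCCT, letters that hold the GGAA core bound by ETS factors such as PU.1, the factor that macrophages need to form. C1qb lies at chr4:136886151-136886450 on the minus strand, C1qc at chr4:136892865-136893164 on the minus strand, Lyz2 at chr10:117282223-117282522 on the minus strand and Lgals3 at chr14:47373610-47373909 on the plus strand.
C1qb: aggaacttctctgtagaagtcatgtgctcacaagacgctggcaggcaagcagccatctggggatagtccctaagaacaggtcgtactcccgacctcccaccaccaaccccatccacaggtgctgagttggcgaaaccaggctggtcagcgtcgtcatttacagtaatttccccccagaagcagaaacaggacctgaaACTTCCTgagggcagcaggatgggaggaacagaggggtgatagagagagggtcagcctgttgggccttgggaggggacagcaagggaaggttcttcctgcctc
C1qc: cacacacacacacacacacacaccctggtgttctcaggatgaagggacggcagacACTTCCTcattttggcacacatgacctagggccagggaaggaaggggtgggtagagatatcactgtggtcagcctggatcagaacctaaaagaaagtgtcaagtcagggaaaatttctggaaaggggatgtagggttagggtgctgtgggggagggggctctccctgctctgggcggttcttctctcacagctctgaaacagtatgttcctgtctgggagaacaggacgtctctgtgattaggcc
Lyz2: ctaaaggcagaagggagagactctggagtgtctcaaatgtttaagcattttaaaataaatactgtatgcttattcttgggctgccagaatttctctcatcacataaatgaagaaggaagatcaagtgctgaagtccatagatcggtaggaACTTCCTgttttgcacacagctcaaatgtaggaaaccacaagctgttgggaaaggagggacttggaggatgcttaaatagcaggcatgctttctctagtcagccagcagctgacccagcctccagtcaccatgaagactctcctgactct
Lgals3: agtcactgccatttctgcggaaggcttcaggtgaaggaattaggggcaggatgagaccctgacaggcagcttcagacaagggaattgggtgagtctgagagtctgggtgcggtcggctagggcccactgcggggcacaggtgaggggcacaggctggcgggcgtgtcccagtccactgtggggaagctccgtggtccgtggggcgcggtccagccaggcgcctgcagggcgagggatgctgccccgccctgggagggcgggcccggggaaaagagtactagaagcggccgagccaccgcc
AGGAAGT was searched on both strands in the 33 promoters listed for 28 of the genes, and 11 of the 33 (33.3%), from 10 genes, held it: C1qb, C1qc, Ctss, Fcgr1, Fcrls, Lyz2, Mrc1, P2ry12, Ptprc and Spp1. Of all 32851 promoters of this length, 9.35% held it. The shorter GAGGAA, which overlaps AGGAAGT where a G stands before it, was in 19 of the 33 (57.6%) and in 28.3% of all promoters. Both sets of letters were chosen after the match counts of several had been seen, some genes have more than 1 promoter in the table, and a match is a description of the letters only. Lyz2 of the MB and GNP pattern and C1qb and C1qc of the other pattern each held AGGAAGT once, and Lgals3 did not hold it in this window.

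Fc gamma receptors bind antibody on phagocytes. Fcgr3, the low-affinity activating receptor that signals through FCER1G, read 6.79, 7.86 and 8.25 in the MBs, 4.71 and 5.89 in GNPs and 5.30 and 5.27 in cerebellum. All tumors were above all normal samples, by 2.35 ± 0.42 (adjusted p = 0.00143) and 2.36 ± 0.42 (adjusted p = 0.00103), and the normal groups overlapped. Fcgr1, the high-affinity receptor, ran from 4.14 through 4.67 to 5.20 in the MBs, with 3.30 and 3.71 in GNPs and 3.29 and 3.37 in cerebellum. It passed the test against both (1.18 ± 0.31, adjusted p = 0.0125, and 1.35 ± 0.31, adjusted p = 0.00491), although one of its 2 probe sets did not exceed 3.97 in any sample. The call against GNPs was lost without GNP sample CGNP_2698 (adjusted p = 0.132, and from 0.00124 to 1 over all alternatives). Fcgr2b, the inhibitory receptor, had MB values of 3.55 to 4.73 that overlapped both normal groups and passed neither test (adjusted p = 0.0898 and 0.0526). One of its 3 probe sets was at 2.20 in all samples and dilutes these values, and a less specific set, not used for the level, read 5.01 to 7.20 in MBs and at most 4.29 in the normal samples. In 4 of 22 alternatives it was called as higher in MBs against each normal group, among them without tumor MB_706, and over all alternatives the range was wide (adjusted p from 0.0022 to 1 against GNPs and from 0.00206 to 1 against cerebellum).

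Among general leukocyte genes, Mpeg1 gave the largest difference between MBs and cerebellum of the 37. Mpeg1, which encodes the pore-forming perforin-2 of macrophages, ran from 9.10 through 10.24 to 10.75 in the MBs, with 5.93 and 7.29 in GNPs and 3.67 and 4.98 in cerebellum. The 3 groups were separate and ordered MB, GNP, cerebellum. MBs exceeded cerebellum by 5.74 ± 0.56, a 53.4-fold difference (adjusted p = 1.8e-05), and GNPs by 3.46 ± 0.56 (adjusted p = 0.000794), and GNPs exceeded cerebellum by 2.28 ± 0.71 (adjusted p = 0.0375). This last call was lost without GNP sample CGNP_2705, cerebellum sample WC_2646 or tumor MB_630 (adjusted p = 0.239, 0.239 and 0.0511, and from 0.0147 to 0.47 over all alternatives). Aif1, which encodes the microglial stain IBA1 and was read from a less specific probe set alone, had 7.28, 8.54 and 8.90 in the MBs, 3.98 and 5.63 in GNPs and 5.03 and 4.79 in cerebellum. Ly86, the partner of a toll-like receptor relative, spread from 6.004 through 7.91 to 8.92 in the MBs, against 3.30 and 3.88 in GNPs and 4.84 and 5.10 in cerebellum. For both, every tumor exceeded every normal sample, with Aif1 higher by 3.39 ± 0.56 and 3.28 ± 0.56 (adjusted p = 0.000922 and 0.000845) and Ly86 by 3.90 ± 0.72 and 2.52 ± 0.72 (adjusted p = 0.00179 and 0.0166) against GNPs and cerebellum respectively. The call for Ly86 against cerebellum was lost without cerebellum sample WC_2646 or WC_2647 (adjusted p = 0.111 and 0.0768, and from 0.00137 to 0.173 over all alternatives).

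Ptprc, the CD45 phosphatase of all leukocytes, had MB values of 4.29, 4.65 and 4.87 against 3.31 and 3.84 in GNPs and 2.85 and 3.002 in cerebellum. Its differences of 1.05 ± 0.18 (adjusted p = 0.001) and 1.70 ± 0.18 (adjusted p = 2.87e-05) are again averages with a probe set that stayed at the lowest values, and the informative set read 6.37 to 7.53 in MBs, 4.41 and 5.47 in GNPs and 3.51 and 3.802 in cerebellum. Itgb2, the beta chain shared by leukocyte integrins, grouped MBs and GNPs together: 5.36, 6.32 and 7.08 in the MBs and 5.25 and 5.46 in GNPs, with 2.48 and 3.12 in cerebellum. Only the differences from cerebellum passed the test (3.46 ± 0.48, adjusted p = 0.000203, for MBs and 2.56 ± 0.61, adjusted p = 0.0103, for GNPs), and the latter was lost without GNP sample CGNP_2705 or cerebellum sample WC_2646 (adjusted p = 0.0554 and 0.0721, and from 0.00324 to 0.169 over all alternatives). Its partner Itgam, the alpha chain known as CD11b, read at most 3.48 in any sample and was not called. Laptm5, a lysosomal membrane protein of blood cells, was at 2.30 in all MBs by its specific probe set, and its call below GNPs (adjusted p = 0.0482) rests on a difference between lowest values and was lost when any 1 sample other than GNP sample CGNP_2698 was left out. The less specific set of highest signal for Laptm5 read 8.11 to 10.04 in MBs, 5.16 and 5.97 in GNPs and 6.59 and 6.09 in cerebellum.

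Adgre1, which encodes an adhesion receptor widely used to stain mouse macrophages, was highest in GNPs. It measured 7.97 and 8.71 in GNPs, 5.44, 6.56 and 7.03 (lowest, median and highest) in MBs, and 4.09 and 4.17 in cerebellum. The 3 groups were separate. Without GNP sample CGNP_2705 the difference between MBs and GNPs did not pass the test (adjusted p = 0.088, and from 0.00162 to 1 over all alternatives). The difference was -1.98 ± 0.45 for MBs against GNPs (adjusted p = 0.00602), 2.23 ± 0.45 for MBs against cerebellum (adjusted p = 0.0024) and 4.21 ± 0.57 for GNPs against cerebellum (adjusted p = 0.000387). When GNPs and cerebellum were joined as 1 normal group of 4, MBs differed by 0.13 (adjusted p = 1), since the MBs lay between them.

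Genes of border macrophages, which live in the meninges and around vessels, were near the lowest values of the data. Mrc1, the mannose receptor, ran from 2.29 through 3.41 to 4.73 in the MBs, at most 2.28 in GNPs and 2.84 in cerebellum, with no call (adjusted p = 0.138 and 0.497). The highest value belonged to tumor MB_630, which was also the tumor highest in markers of connective tissue, such as Lum (8.59) and Col3a1 (10.30). Cd163 and Lyve1 stayed at or below 2.74 and 2.25 in every sample. Of 9 further border macrophage genes measured, Ms4a7 (1.74 ± 0.15, adjusted p = 8.84e-06) and Stab1 (0.97 ± 0.28, adjusted p = 0.017) were higher in MBs than in cerebellum, a share of the 9 no larger than the 22.2% of all genes.

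The sets of homeostatic and activated genes were then compared within each tumor. In each MB, the median over the 8 homeostatic genes of the log2 difference from the cerebellum mean lay between -0.05 and 0.74, with a median of 0.57 over the tumors. The same median over the 6 activated genes lay between 2.84 and 3.89, with a median of 3.51. Relative to cerebellum, activated exceeded homeostatic genes in all 8 MBs, by 3.05 ± 0.26 (SD, n = 8), with a range of 2.60 to 3.41. All 8 gaps rest on the same mean of 2 cerebellum samples, and the SD leaves out the error of that mean. GNPs had homeostatic medians of -0.81 and -0.38 and activated medians of 2.22 and 3.32, a gap in the same direction. Tmem119, Siglech and Olfml3, among the 8 homeostatic genes, had little or no level in cerebellum, and so had Cd14 of the activated genes. Cx3cr1 was averaged with a probe set near the lowest values of the data. Genes without a readable level hold a median toward 0, so the gap in part reflects which genes could be read. The size of the gap also depends on the summary used. With the mean over each full list in place of the median it was 1.90. Relative to GNPs the homeostatic medians were 0.63 to 2.11 above the GNP mean in the MBs and the activated medians -0.01 to 1.04. By that measure the order of the sets was reversed in every tumor except MB_1207 (0.96 homeostatic and 1.04 activated). The direction of the gap thus depended on the normal group used.

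**Figure D3:**
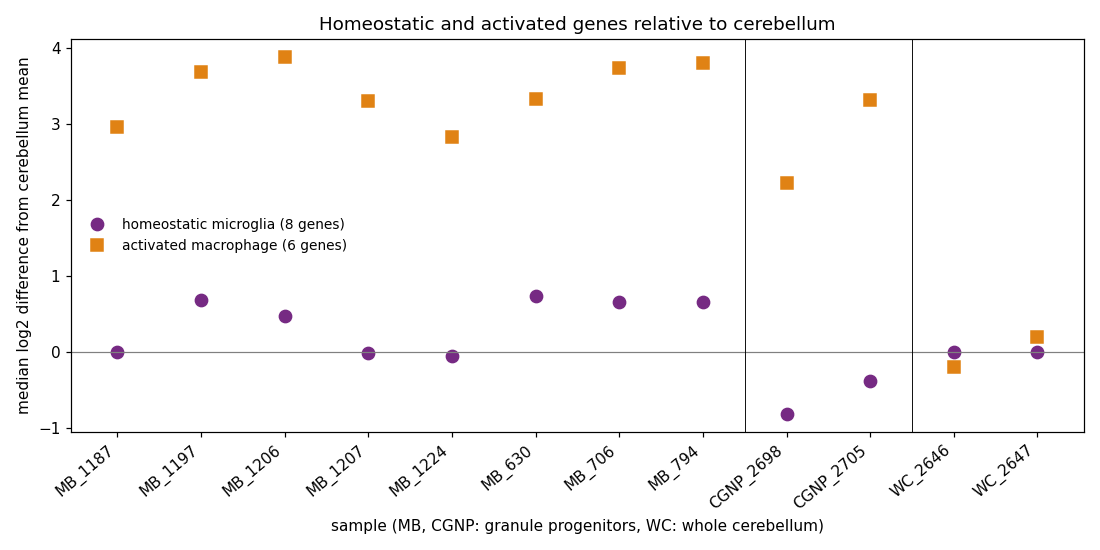
Median log2 difference from the cerebellum mean over 8 homeostatic microglia genes (circles) and 6 activated macrophage genes (squares), on the vertical axis, for each of the 12 samples on the horizontal axis. The squares lie at 2.84 to 3.89 in the MBs and the circles at -0.05 to 0.74, and in both GNP samples the squares are above 2 and the circles below 0. The circles include Tmem119, Siglech and Olfml3 and the squares Cd14, which had little or no level in cerebellum.

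The tumors differed among themselves in a way that most of these genes shared. Over the 20 genes with a mean log2 level above 5 in the MBs, tumor MB_1187 was among the 3 lowest for 19, tumor MB_1224 for 18 and tumor MB_1207 for 16. Tumors MB_1197 and MB_1206 were among the 3 highest for 13 each. The median deviation from the MB mean was -0.88 in tumor MB_1224, -0.62 in tumor MB_1207 and -0.57 in tumor MB_1187, and 0.20 to 0.50 in the other 5. Tumor MB_1224 was lowest for 12 genes, among them P2ry12, Gpr34, Csf1r, C1qb, C1qc and Aif1. Tumor MB_1207 combined low levels of most genes with the highest of all tumors for Cd68 (7.74), Lyz2 (10.78) and Lgals3 (9.15). Astrocyte and oligodendrocyte markers moved with this order. The same 3 tumors had the lowest summed levels of 6 astrocyte markers (7.90 in MB_1207, 8.24 in MB_1224 and 8.48 in MB_1187, against 8.69 to 9.50 in the other 5). They were also lowest for 5 oligodendrocyte markers (6.28, 7.04 and 8.13, against 8.14 to 9.06), with MB_1187 almost level with the next tumor. Other cell markers did not fully follow it. Summed granule neuron markers were 13.09 in MB_1207, 13.31 in MB_1224 and 12.54 in MB_1187, against 12.85 to 13.67. Endothelial markers were lowest in MB_1206 (5.22). Connective tissue and Purkinje cell markers were lowest in MB_1207 and MB_1224 but not low in MB_1187. Aqp4, the water channel of astrocytes, read 3.98 and 4.10 in tumors MB_1207 and MB_1224 and 5.12 in MB_1187, with 4.79 to 6.82 in the others. What part the content of other brain tissue has in the order of the tumors was not tested. These genes share their samples and arrays, so their ranks are not independent, and with 8 tumors the order is a description.

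**Figure D4:**
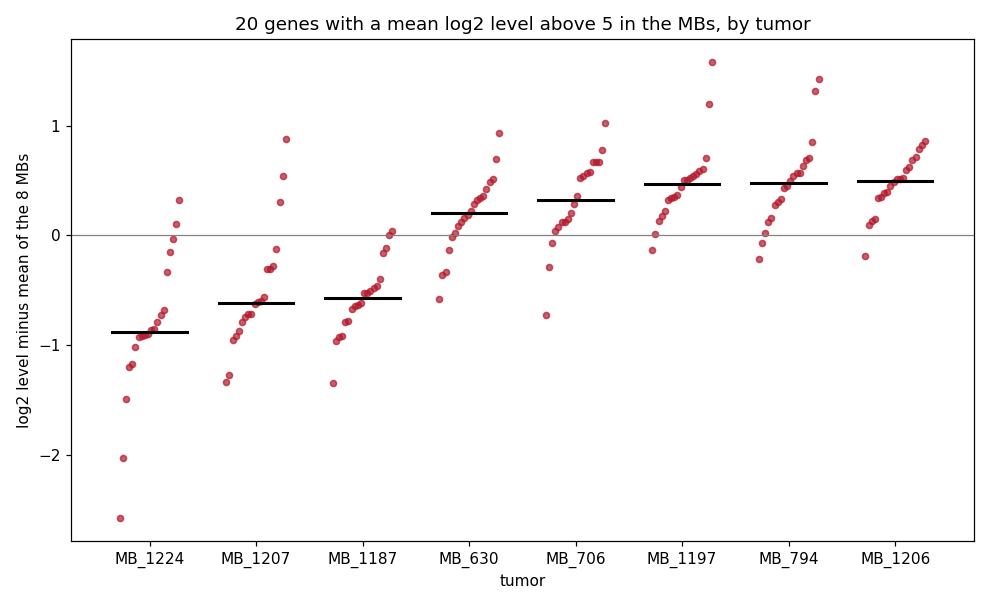
Log2 level minus the mean of the 8 MBs for the 20 genes with a mean log2 level above 5 in the MBs, by tumor. Each point is a gene, the bar is the median over the 20 genes, and the tumors are ordered by that median. Tumors MB_1224, MB_1207 and MB_1187 have medians of -0.88, -0.62 and -0.57, and the other 5 lie between 0.20 and 0.50.

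Tumor MB_1207 was also the highest tumor for several genes listed here for neutrophils, monocytes or border macrophages, named after their values were seen. Other genes of the monocyte list went the other way. Tumor MB_1207 was the lowest for Plac8 (3.02) and Itga4 (3.07), with MB medians of 3.59 and 3.33. S100a8 and S100a9, calcium-binding proteins of neutrophils and monocytes, read 9.52 and 8.28 there, against median levels of 4.54 and 3.91 over the 8 MBs. S100a8 also read 7.39 in tumor MB_1206 and 7.20 in tumor MB_794. Arg1, an enzyme of alternatively activated macrophages, read 4.91 in tumor MB_1207 with an MB median of 2.20, and Pf4 read 6.12 there, 5.53 in tumor MB_1206 and 5.04 in tumor MB_1224, with an MB median of 3.15. Chil3, another gene of alternatively activated macrophages, was highest in tumor MB_1197 at 7.38, with an MB median of 4.48. The neutrophil granule genes Ngp, Camp and Ltf were at or below 2.68 in all samples. Ccr2, the receptor that brings monocytes into tissue, did not exceed 2.67 in any sample. S100a8, S100a9, Arg1, Pf4 and Chil3 did not pass the test against either normal group.

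Among genes of disease-associated microglia, a state described around plaques and dying neurons, 8 of 13 measured were higher and 2 lower in MBs than in cerebellum (22.2% and 21.8% of all genes), and 7 were higher and 1 lower than in GNPs (18.7% and 18.6% of all genes). Lpl, a lipoprotein lipase, ran from 7.73 through 8.57 to 9.25 in the MBs, with 6.47 and 6.81 in GNPs and 2.90 and 3.29 in cerebellum, and was higher by 5.43 ± 0.36 than in cerebellum (adjusted p = 1.06e-06). Clec7a, a receptor for fungal glucans, was higher than in cerebellum by 4.79 ± 0.67 (adjusted p = 0.000217). Cst7, an inhibitor of cathepsins, spanned 4.19 to 8.20 in the MBs and no more than 3.20 elsewhere, a difference from GNPs of 3.87 ± 0.92 (adjusted p = 0.00772). The 2 genes lower than in cerebellum were lysosomal proteases, Ctsb (-1.41 ± 0.23, adjusted p = 0.000562) and Ctsl (-0.72 ± 0.17, adjusted p = 0.0058).

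Of 10 myeloid transcription factors measured, 2 were higher and 2 lower in MBs than in cerebellum, shares close to the 22.2% and 21.8% of all genes, and 3 were higher and 0 lower than in GNPs (18.7% and 18.6% of all genes). Irf8 and Fli1 were higher than in both normal groups, and Cebpa was higher than in GNPs alone (2.20 ± 0.66, adjusted p = 0.0248). Irf8 had MB levels of 3.50, 3.95 and 4.97 against 2.52 and 2.34 in GNPs and 2.66 and 2.41 in cerebellum, with differences of 1.62 ± 0.39 (adjusted p = 0.00849) and 1.51 ± 0.39 (adjusted p = 0.0102). Fli1, an ETS factor of blood and vessel cells, was higher by 1.45 ± 0.28 (adjusted p = 0.00254) and 0.92 ± 0.28 (adjusted p = 0.0245). Spi1, which encodes PU.1, read 2.99 to 3.62 in the MBs and 2.88 to 3.04 elsewhere and was not called. Maf (-2.02 ± 0.21, adjusted p = 2.57e-05) and Nfatc2 (-0.95 ± 0.11, adjusted p = 6.26e-05) were lower in MBs than in cerebellum.

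Of 11 attractants of macrophages measured, 7 were higher in GNPs than in cerebellum and 1 lower (14.9% and 13.6% of all genes), and 5 were lower and 0 higher in MBs than in GNPs (18.6% and 18.7% of all genes). Those 5 were Ccl2, Ccl3, Ccl4, Ccl7 and Csf3. Csf3, also counted among the 7, read only 2.38 and 2.25 in GNPs and 2.20 elsewhere, so its calls rest on the lowest values of the data. Ccl3 read 6.73 and 8.15 in GNPs, 2.36 to 3.91 in MBs and 2.37 and 2.43 in cerebellum, and was higher in GNPs than in cerebellum by at least 5.04 ± 0.58 (adjusted p = 0.000129). Ccl2, the main ligand of CCR2, read 6.38 and 7.66 in GNPs, 3.37 to 4.42 in MBs and 2.42 in both cerebellum samples. Cd14 and Adgre1, described above, were also highest in GNPs. Cxcl10, an interferon-induced chemokine, was high in both MBs (5.40, 7.47 and 8.68) and GNPs (5.88 and 7.48) and higher than in cerebellum by 3.67 ± 0.77 in MBs (adjusted p = 0.00282). Ccl12, a further CCR2 ligand of mice, ran from 2.47 through 5.15 to 6.56 in the MBs, at most 2.72 in the normal samples, and was not called (adjusted p = 0.103 against GNPs and 0.106 against cerebellum). Cx3cl1, the neuronal ligand of CX3CR1, read 2.59 to 2.67 in MBs and 2.59 and 2.63 in GNPs, and was lower than in cerebellum (4.27 and 3.74), with bounds on the difference of -1.37 ± 0.10 and -1.39 ± 0.12 respectively (adjusted p = 1.91e-06 and 2.21e-05).

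Of 8 genes of phagocytosis and of the signals that restrain it, 4 were lower and 2 higher in MBs than in cerebellum, against 21.8% and 22.2% of all genes. Cd47, the surface protein that holds back phagocytes, had 5.87, 6.25 and 6.60 in the MBs, 8.03 and 7.87 in GNPs and 8.22 and 8.32 in cerebellum. Every tumor was below every normal sample (-1.70 ± 0.14, adjusted p = 1.1e-05, and -2.02 ± 0.14, adjusted p = 1.94e-06). Sirpa, the receptor for CD47, which neurons also carry, was lower in MBs than in cerebellum (-3.75 ± 0.16, adjusted p = 5.12e-08) and was not called against GNPs (adjusted p = 0.272). Pros1, a bridging ligand of the receptor MERTK, was higher in MBs by 1.98 ± 0.23 (adjusted p = 0.000102) and 2.40 ± 0.23 (adjusted p = 1.74e-05) against GNPs and cerebellum. Gas6 and Mfge8 of the same list went the other way. Gas6 was lower in MBs than in cerebellum (-1.42 ± 0.29, adjusted p = 0.00265) and not called against GNPs. Mfge8 was lower than in GNPs (-1.43 ± 0.18, adjusted p = 0.000162) and cerebellum (-2.15 ± 0.18, adjusted p = 6.41e-06). Mertk itself was not called in any comparison.

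Markers of several other cells moved with these comparisons, and their part in the differences was not tested. The 7 T cell markers measured, Cd3e, Cd4 and Cd8a among them, did not move. Nor did the 4 B cell markers, Cd79a and Ms4a1 among them, beyond small differences at the lowest values. All were at or below 2.66 in every sample, where values carry little information on the gene. Connective tissue markers, summed over 6 genes, reached 10.60 and 10.95 in GNPs, 7.32 and 7.54 in cerebellum and 5.82 to 10.81 in MBs, with the highest MB value in tumor MB_630. All 6 were lower in MBs than in GNPs, where 18.6% of all genes were lower. Endothelial markers summed to 8.95 and 9.16 in cerebellum, 5.22 to 8.07 in MBs and 4.96 and 5.06 in GNPs. Of 5 oligodendrocyte markers, all were lower in MBs than in cerebellum. Of 6 granule progenitor genes 5 were higher and 1 lower there, where 22.2% of all genes were higher and 21.8% lower.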

How the data were processed

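Total RNA (Trizol) from 12 mouse samples was hybridized to Affymetrix Mouse 430 v2.0 arrays, and the authors processed the scans with GCRMA in the R library affy. The deposited values are log2 intensities with a lowest value of about 2.2, for 45101 probe sets. Ages, dissection and cell separation of the arrayed samples are not given in the sources used here. Probe sets were named from a platform annotation: 34945 paired with 1 gene, 932 with several and 9160 with none, and 64 were array controls. A gene's level was the mean of its probe sets not ending in _s_at or _x_at (all if it had no other, as for Aif1), giving 18193 genes.

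The 3 groups (8 MBs, 2 GNP and 2 cerebellum samples) were fitted together with limma 3.58.1 in R 4.3.3 (lmFit, contrasts.fit, eBayes). P-values were adjusted over all 18193 genes by the Benjamini-Hochberg method at 0.05, and the fit was tested on simulated data. Of 100 genes shifted by 1 log2 unit, 52% were recovered for MBs against GNPs, 57% for MBs against cerebellum and 41% for GNPs against cerebellum. For a shift of 2 log2 units these were 81%, 82% and 78%. A gene that was not called may therefore still differ. Each sample is a separate mouse by its number. No batch is given in the labels. The number of arrays, above all 2 per normal group, limits the precision. Gene lists (8 of members, 18 others with 123 of 137 genes measured) and members were chosen with earlier results of these data known. Every measured member is named. Of the other lists some of the largest rises and falls past the test are named, but not all. Defining markers of other cells and some genes chosen after their values were seen are named too. Differences against a group near the lowest value are lower bounds. Alternatives were another probe set rule, normalization, array weights, a trended spread, a filter, the methods' t-test, a minimum fold change, fewer groups, joined normal samples and each sample left out.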

Additional observations from a re-analysis of the deposited data

Results flagged for a closer look

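In 31 genes the highest or lowest tumor was compared with its nearest neighbour, and in 2 its gap to that neighbour was larger, relative to the whole range of the 8 MBs, than Dixon's critical value, where chance gives about 1 in 20. Olfml3 read 4.92 in tumor MB_630, and the next highest tumor read 3.10. Cd14 read 4.34 in tumor MB_1206, and the next highest read 2.70. In both genes the other tumors lay close to the lowest values of the data (2.38 to 3.10 for Olfml3 and 2.42 to 2.70 for Cd14). Their spread is small there, so the criterion is easily passed. The cause of either gap was not tested.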

How the results depend on the processing

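Over the 37 genes, 3 comparisons and all alternatives, 2297 of 2474 values kept their direction and their side of the threshold, 119 lost and 51 gained a call, and 7 reversed. Several alternatives, such as leaving out a sample of the group not compared, cannot change the difference itself. The share kept is therefore not a measure of robustness. The genes higher in MBs than in GNPs numbered 17, and 10 with a minimum fold change (1 log2 unit), with 13 to 18 when 1 sample was left out. The 4 lower in MBs than in GNPs became 7 with arrays shifted to the same median, 2 with a filter on level, 1 with a minimum fold change, 1 with GNPs and cerebellum joined, and 1 to 5 with 1 sample left out. The 2 lower in MBs than in cerebellum became 6, 1, 0 and 1 under the same settings in that order, and 2 to 4 with 1 sample left out. The 0 came from limma's minimum fold change test, in which 1 gene was lower at an unadjusted p under 0.05, against 2 by the methods' t-test with adjustment. The 8 higher in GNPs than in cerebellum became 5 with a minimum fold change, 5 with the groups compared alone, and 0 by the methods' t-test (6 at an unadjusted p under 0.05), with 5 to 11 when 1 sample was left out. The 7 lower became 0 with limma's minimum fold change (3 at an unadjusted p under 0.05), 4 with the groups compared alone, 3 by the methods' t-test, and 1 to 8 with 1 sample left out. With arrays shifted to the same median, the count of all genes lower in MBs rose from 3389 to 8784 against GNPs and from 3966 to 9857 against cerebellum. That setting moved the median of all genes by -0.11, -0.20 and -0.08 in the 3 comparisons. A minimum fold change cut the counts of all genes too. Those higher in MBs fell from 3403 to 855 against GNPs and those lower from 3389 to 886. Against cerebellum they fell from 4043 to 1317 and from 3966 to 1460. Between GNPs and cerebellum they fell from 2703 to 542 and from 2477 to 669. There the methods' t-test gave 1106 higher and 1105 lower.

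Reversed values were Adgre1 against GNPs with normal samples joined (0.13), Lyve1 against GNPs with arrays shifted (-0.11), Trem2 against cerebellum with the probe set of highest signal (1.73), and Laptm5, which with all probe sets was 1.06 against GNPs and 1.01 against cerebellum and with the probe set of highest signal 3.57 and 2.80. For Trem2 and Laptm5 that alternative uses the less specific sets. The gap between activated and homeostatic genes, relative to cerebellum, was 3.05, and 1.90 with the mean over each list. It was 2.09 with genes filtered on level, a choice made after seeing the data. There 3 of the 4 homeostatic genes left (Cx3cr1, Gpr34 and Fcrls) passed through the MBs alone, so this smaller gap follows in part from the choice. Relative to GNPs the order of the sets was reversed in every tumor except MB_1207. The gap of 3.05 in turn includes Tmem119, Siglech and Olfml3, which had little or no level in cerebellum. The other causes were not tested. No paired analysis was possible because the groups share no mouse numbers. The lowest values of the data hide the level of Il34, Tmem119, Cd163 and Lyve1, and with 2 samples a group the normal comparison rests on either sample.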
